A study of Homo sapiens with 16 samples.

Results

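The comparison is that of THP-1 macrophages cultured alone with and without LPS plus IFN-gamma, measured by RNA-seq in 8 of the 16 libraries of the series, 4 a side, which were chosen by their group labels. THP-1 is a human monocytic leukaemia cell line that phorbol 12-myristate 13-acetate (PMA) turns into adherent macrophage-like cells. All 8 libraries came from wild-type THP-1 cells that had received 100 ng/mL PMA for 48 hours. The control group, called M0, received nothing further that its labels name. In the stimulated group the PMA was removed by a change of medium, and the cells received 100 ng/mL LPS from P. gingivalis together with 20 ng/mL IFN-gamma for another 48 hours. The labels of the M0 libraries do not state whether these cells were kept for the same additional time, so stimulation and time after PMA cannot be told apart from the labels alone. The other 8 libraries came from the same conditions with cells labelled iMSCs in Transwell inserts, and they enter here only through the shared estimate of the spread between libraries. Nothing in the labels says that the 4 libraries of a group came from separate cultures, so the p-values measure the spread between these libraries, which may be technical.

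LPS of Gram-negative bacteria is sensed by Toll-like receptors at the cell surface and activates NF-kB and MAP kinases. IFN-gamma acts through its own receptor, and together the agents give the state long called classical or M1 activation, in which macrophages make cytokines, interferon-stimulated proteins, antigen-presenting molecules, reactive oxygen species and itaconate. Cytokine, chemokine, interferon-stimulated, antigen presentation and complement genes were set aside by a pattern of gene symbols when the largest changes were ranked, so that the remainder of the transcriptome could be described. The pattern reads symbols only, so genes that respond to interferon can remain among the ranked changes. Because the samples are bulk cultures, fewer cells of a type and less RNA per cell cannot be told apart.

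Total counts were between 20338546 and 24368753 per library. The fourth stimulated library stood apart from its group. Of 7872 genes with a mean of at least 10 counts scaled to a library of 1000000 (CPM) over the 8 libraries, 474 differed at least 2-fold between stimulated replicate 4 and the median of the other 3 stimulated libraries, 282 of them higher and 192 lower. The same comparison gave 0 genes for each of the other 3 stimulated libraries and 3 or 4 genes for each M0 library. Counts for the gene lists are therefore given with and without replicate 4, as are the values of many single genes, and wherever the 4 values of a group are listed they stand in replicate order, so that the last stimulated value is that of replicate 4. The 12 macrophage and monocyte markers summed to 1642 to 1736 CPM in M0, 2679 to 2717 CPM in stimulated replicates 1 to 3 and 5783 CPM in replicate 4. In replicates 1 to 3 FCER1G gained most (18713 to 22520 counts against 4206 to 5058 in M0), then CD14. CSF1R, ITGAM (942 to 1030 against 4012 to 4493), MSR1 and CD163 had fewer counts there than in any M0 library. In replicate 4 only ITGAM of these was below M0. CSF1R, the receptor for macrophage colony-stimulating factor, had 9315 to 17661 counts in every library, whereas the usual macrophage markers CD68 and MRC1 had at most 8 and 5 counts per library. Of the markers of other cells, 4 of 6 T cell, 4 of 5 epithelial and 4 of 5 erythroid genes had 0 counts in all 8 libraries. The 5 neutrophil precursor markers summed to 6.70 to 7.61 CPM in M0, 1.70 to 2.40 CPM in stimulated replicates 1 to 3 and 16.6 CPM in replicate 4. The T cell list, with all but at most 1 count of each library from TRAC, summed to 9.16 to 9.95 CPM in M0 and 3.48 to 4.90 CPM after stimulation, the endothelial list to 1.85 to 2.61 and 0.856 to 1.40 CPM and the B cell list to 1.16 to 1.68 and 0.881 to 2.76 CPM. The 8 mesenchymal markers summed to 92.9 to 99.4 CPM in M0, 148 to 159.5 CPM in stimulated replicates 1 to 3 and 52.6 CPM in replicate 4. PDGFRA was the largest contributor in every library. COL1A1 had 28 to 51 counts per library in M0 and 116 to 147 after stimulation, while PDGFRB had 272 to 363 and 14 to 58. THY1 had 0 counts throughout and COL1A2 at most 4. The part of these markers of other cells in the results was not tested.

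Most of the expressed genes differed between the stimulated and the M0 libraries, in about equal numbers up and down. Stimulation and time after PMA cannot be told apart in these counts. Of 15301 genes tested, 8779 (57.4%) passed an adjusted p of 0.05 in edgeR's quasi-likelihood test with Benjamini-Hochberg adjustment, 4451 (29.1%) higher and 4328 (28.3%) lower in the stimulated libraries. A change of at least 2-fold was called for 1406 genes (9.19%) that rose and 1272 genes (8.31%) that fell. Without replicate 4 the test called 4638 genes higher (29.7%) and 4584 lower (29.4%) of 15599 tested, and 2722 genes in all at least 2-fold. Scaling by library totals alone, without the trimmed-mean (TMM) factors used here, lowered the median log2 fold change of all genes from 0.01 to -0.25 and gave 2520 genes higher and 6934 lower, so the counts of most gene lists are given below under that setting too, written as by library totals. The 4 stimulated libraries lay entirely above or entirely below the 4 M0 libraries for 7993 genes (52.2%). Protein-coding genes were called higher in 31.0% and lower in 29.8% of 12619 tested, and long noncoding RNA genes in 20.2% and 22.5% of 2003 tested. The shares 29.1% and 28.3% are the background for the gene list counts with all libraries, and 29.7% and 29.4% for those without replicate 4. Counts by library totals have another background, the 2520 genes higher and 6934 lower of 15301 under that setting. There a list with more falls than rises is nothing unusual.

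**Figure D1:**
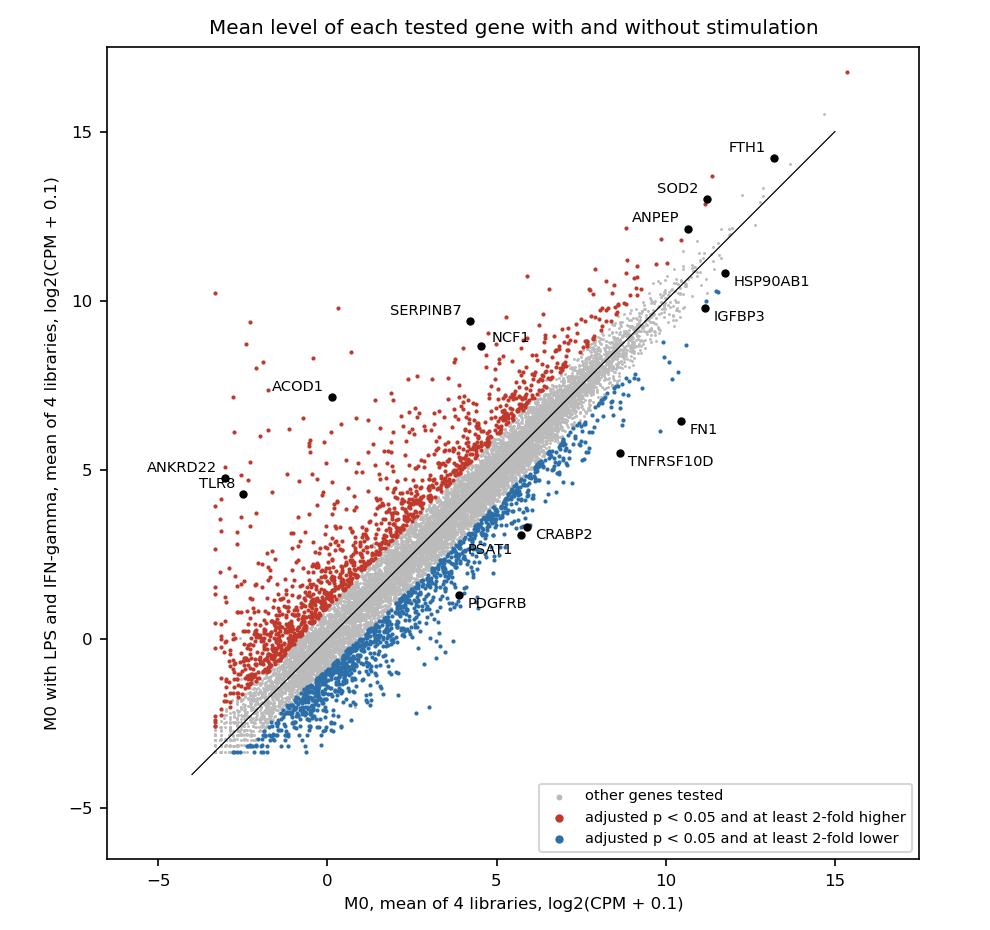
Mean level of each of the 15301 tested genes in the 4 M0 libraries (x axis) and the 4 stimulated libraries (y axis), both as log2 of CPM plus an offset of 0.1, with the line of equality. The 1406 genes called at least 2-fold higher are red and the 1272 called at least 2-fold lower are blue, and the largest rises start from genes near 0 CPM in M0.

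Among genes of at least 3 in average log2 CPM, the largest rises outside the set-aside symbols were in genes that M0 cells barely expressed. They are not a set free of interferon-responsive genes. ANKRD22, which encodes an ankyrin-repeat protein, had 0, 0, 0.0419 and 0.0484 CPM in the M0 libraries and 20.8, 23.4, 19.9 and 44.5 CPM in the stimulated libraries. With only 2 counts in M0 against 1985 after stimulation, the ratio was 1133 with a 95% counting interval of 313 to 9363 (exact, counting error only). SECTM1, a secreted and transmembrane ligand of the T cell molecule CD7, had 0.0498, 0.10, 0.126 and 0 CPM in M0 and 21.0, 25.1, 20.2 and 49.8 CPM after stimulation (log2 fold change 8.56 ± 0.52 SE, adjusted p = 2.73e-09). TLR8, the endosomal receptor for single-stranded RNA, had 0.0498, 0, 0.168 and 0.0967 CPM in M0 and 15.7, 19.9, 18.0 and 23.6 CPM after stimulation (log2 fold change 7.77 ± 0.24 SE, adjusted p = 7.88e-14). All stimulated libraries lay above all M0 libraries for these genes, which was a condition of their choice. Replicate 4 was the highest of its group in each. The fitted change of TLR8 depends on very few M0 counts and was 8.45 without M0 replicate 3.

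Transcription factors were among the steepest rises. ETV7, a member of the ETS family, rose from 0.0995, 0, 0.0419 and 0.242 CPM to 24, 25.5, 24.9 and 29.0 CPM (log2 fold change 8.01 ± 0.30 SE, adjusted p = 8.76e-13). BATF2, a basic leucine zipper factor, rose from 0.995, 0.851, 0.964 and 1.11 CPM to 69.1, 75.8, 65.7 and 69.1 CPM (log2 fold change 6.15 ± 0.15 SE, adjusted p = 2.39e-15). For both genes replicate 4 lay with its group, and the log2 fold changes without it were 7.95 and 6.15. Leaving out M0 replicate 4 moved ETV7 to 8.94.

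Genes of calcium-binding S100 proteins and of intracellular serpins rose, and here replicate 4 lay below the rest of its group. S100A8, which with S100A9 forms the antimicrobial complex calprotectin, had 2.44, 2.75, 2.01 and 3.00 CPM in M0 and 133, 136, 162 and 105 CPM after stimulation (log2 fold change 5.72 ± 0.27 SE, adjusted p = 3.74e-10). S100A9 had 16.7, 14.4, 15.7 and 17.8 CPM in M0 and 407, 424, 471 and 242 CPM after stimulation (log2 fold change 4.58 ± 0.25 SE, adjusted p = 1.39e-09). S100A12 rose by 5.77 ± 0.38 on the log2 scale, and changes named below without values per library are log2 fold changes, with the standard error after ±. SERPINB7 had 19, 16.1, 19.3 and 20.1 CPM in M0 and 824, 802, 878 and 204 CPM after stimulation (log2 fold change 5.18 ± 0.53 SE, adjusted p = 2.43e-06), and SERPINB4 rose by 5.34 ± 0.31 from 2.19 ± 0.330 CPM (mean ± SD, n = 4). SERPINB9, the inhibitor of granzyme B, rose by 6.99 ± 0.91. SERPINB2, also called plasminogen activator inhibitor 2, had 292, 279, 305 and 335 CPM in M0 and 1959, 1886 and 2043 CPM in stimulated replicates 1 to 3 but 256 CPM in replicate 4, so its log2 fold change was 2.34 with all libraries and 2.70 without that library. SERPINB3 and SERPINB4, and the S100A genes among themselves, are near-identical or related copies, and how reads shared between them were treated is unknown here.

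The phagocyte oxidase, which makes superoxide, rose through several of its subunits. NCF1, which encodes its organiser p47phox, had 24.5, 21.2, 22.5 and 25.5 CPM in M0 and 407, 411, 401 and 409 CPM after stimulation (log2 fold change 4.12 ± 0.09 SE, adjusted p = 7.47e-16). The spread within each group was small against that difference, and replicate 4 did not stand apart. The pseudogenes NCF1B and NCF1C, nearly identical to NCF1, rose by 5.78 and 6.07, and reads may have been divided among the copies. Of the 6 oxidase genes tested, 4 rose and 1 fell (4 higher and 1 lower without replicate 4, 4 and 2 by library totals). CYBB, the catalytic subunit, rose by 1.80 ± 0.30, NCF4 by 1.68 ± 0.09 and CYBA by 0.55 ± 0.08. For CYBB, replicate 4 was highest at 381 CPM, at least 2-fold above the mean of the other stimulated libraries. MYO1G, an unconventional myosin of blood cells, rose from 3.13, 2.50, 3.23 and 2.47 CPM to 82.4, 86.2, 82.8 and 50.0 CPM (log2 fold change 4.73 ± 0.18 SE, adjusted p = 3.67e-12). LGALS3BP, a secreted glycoprotein that binds galectin 3, had 0.896, 1.05, 0.754 and 0.822 CPM in M0, 16.3, 13.9 and 14.7 CPM in stimulated replicates 1 to 3 and 102 CPM in replicate 4, and its log2 fold change of 5.37 became 4.09 without that library.

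Letters of interferon-responsive elements were searched on both strands of the RefSeq promoter windows of GRCh38.p14, which run from 250 bases before to 50 bases after a gene's start. The interferon-stimulated response element, written as GAAA, 2 bases of any kind and GAAA, was in 3.65% of the 27305 windows of the table, in 3.01% of the 10815 tested genes with a window, in 7.95% of 893 genes called at least 2-fold higher, in 21% of 157 genes called at least 8-fold higher and in 2.65% of 830 genes called at least 2-fold lower. The interferon-gamma activated sequence, written TTCNNNGAA, was in 7.88%, 6.46%, 9.97%, 17.8% and 5.9% of these same sets. The kappa B letters, GGGA, 2 bases of any kind and TTCC, were in 1.63%, 1.61%, 3.47%, 8.28% and 1.2%. The AP-1 letters TGANTCA were in 7.76%, 4.85%, 8.85%, 12.1% and 6.39%. These sets of called genes include the set-aside symbols, so the shares do not describe the ranked rises alone. They were formed with stimulated replicate 4, and some members reach 8-fold only with it, such as IFIT1 (6.57 with, 2.65 without). The windows of 3 genes are shown because they carry the response element and differ in how replicate 4 behaved: SECTM1 (chr17:82333717-82334016, minus strand), LGALS3BP (chr17:78979874-78980173, minus strand) and IFIT1 (chr10:89392373-89392672, plus strand), each printed from 5′ to 3′ on the gene's own strand. Capitals mark the letters of the response element on either strand.
SECTM1: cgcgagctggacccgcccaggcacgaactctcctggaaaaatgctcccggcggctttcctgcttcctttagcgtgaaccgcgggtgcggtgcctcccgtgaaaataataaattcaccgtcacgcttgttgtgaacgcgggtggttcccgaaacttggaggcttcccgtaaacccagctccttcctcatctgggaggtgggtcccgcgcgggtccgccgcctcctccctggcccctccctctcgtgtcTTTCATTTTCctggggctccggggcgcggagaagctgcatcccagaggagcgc
LGALS3BP: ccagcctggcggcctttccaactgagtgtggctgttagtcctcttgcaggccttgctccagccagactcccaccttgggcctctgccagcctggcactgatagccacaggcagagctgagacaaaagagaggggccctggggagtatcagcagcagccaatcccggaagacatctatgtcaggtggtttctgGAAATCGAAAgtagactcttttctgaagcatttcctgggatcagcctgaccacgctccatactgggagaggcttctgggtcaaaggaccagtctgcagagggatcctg
IFIT1: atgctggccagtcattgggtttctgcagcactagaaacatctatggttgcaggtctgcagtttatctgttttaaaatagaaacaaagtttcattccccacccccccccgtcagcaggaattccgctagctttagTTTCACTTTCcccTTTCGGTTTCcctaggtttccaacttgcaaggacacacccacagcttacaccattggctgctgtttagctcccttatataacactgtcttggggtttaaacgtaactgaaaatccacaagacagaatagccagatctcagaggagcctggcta

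Counted from the start of the gene, with -1 as the base before it, the element began at -3 in SECTM1, at -58 in LGALS3BP, and at -116 and -103 in IFIT1, which encodes an antiviral RNA-binding protein. The match is a description of these windows and does not show that a factor bound there. The log2 fold change of SECTM1 was 8.56 with and 8.17 without replicate 4, a smaller shift than that of LGALS3BP. IFIT1 had 0.896, 0.50, 0.503 and 0.435 CPM in M0, 4.91, 3.53 and 2.66 CPM in stimulated replicates 1 to 3 and 213 CPM in replicate 4, so its log2 fold change of 6.57 fell to 2.65 without that library.

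**Figure D2:**
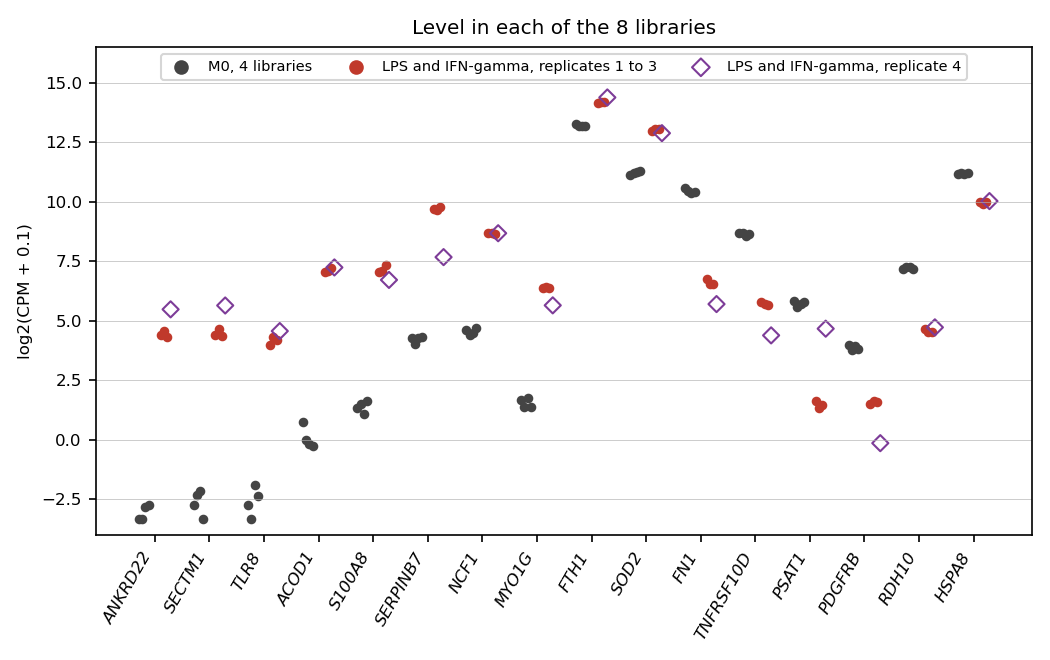
Level of 16 genes in each of the 8 libraries as log2 of CPM plus 0.1. M0 libraries are black, stimulated replicates 1 to 3 red and stimulated replicate 4 an open diamond. The groups do not overlap for any of these genes, which was a condition of choice for all except NCF1. Over all tested genes 52.2% did not overlap. Replicate 4 lies away from the other stimulated libraries for SERPINB7, PSAT1, PDGFRB and TNFRSF10D but not for NCF1, RDH10 or HSPA8.

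The largest falls outside the set-aside classes, among genes of at least 3 in average log2 CPM, were of genes with varied roles. Some genes below that level fell further, such as TNC (-5.57). FN1, fibronectin, fell from 1538, 1398, 1333 and 1367 CPM to 107, 93.2, 93.5 and 51.9 CPM (log2 fold change -4.03 ± 0.19 SE, adjusted p = 1.51e-10). TNFRSF10D, a decoy receptor for the death ligand TRAIL, fell from 408, 411, 382 and 395 CPM to 55.0, 52.3, 51.1 and 20.8 CPM (log2 fold change -3.15 ± 0.27 SE, adjusted p = 2.59e-07). PDGFRB, a receptor for platelet-derived growth factor, fell from 15.7, 13.6, 15.2 and 14.1 CPM to 2.74, 2.95, 2.91 and 0.806 CPM (log2 fold change -2.63 ± 0.25 SE, adjusted p = 2.46e-07). For these 3 genes replicate 4 was the lowest library of all 8. The remaining falls of the same rank were of the calcium channel adaptor STAC2 (-3.56), TM6SF1 (-3.35), DEPP1 (-3.23), the adaptor SHC4 (-2.99), the proteoglycan SPOCK1 (-2.96), the nonmuscle myosin heavy chain MYH14 (-2.78), the meiotic single-strand DNA-binding protein MEIOB (-2.72), the zinc importer SLC39A10 (-2.61) and the Rap1 inactivator RAP1GAP (-2.60), all on the log2 scale. Passing without replicate 4 and no overlap between the groups were conditions of this choice. Without replicate 4 the log2 fold changes of these remaining genes ran from -2.26 for RAP1GAP to -3.54 for TM6SF1.

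Several retinoid genes fell. RDH10, which oxidises retinol to retinal, had 146, 154, 152 and 146 CPM in M0 and 24.9, 22.8, 23.1 and 26.3 CPM after stimulation (log2 fold change -2.62 ± 0.06 SE, adjusted p = 2.39e-15), with no library out of line. CRABP2, which carries retinoic acid to the nucleus, had 58.7, 61.4, 56.8 and 60.2 CPM in M0 and 13.0, 12.1, 9.43 and 4.90 CPM after stimulation (log2 fold change -2.58 ± 0.19 SE, adjusted p = 1.99e-08). ALDH1A2, which makes retinoic acid from retinal, fell by 2.26, DHRS9 fell by 1.73 and CYP26B1, which breaks retinoic acid down, fell by 1.54. The receptor partner RXRA fell by 0.40, while the retinoic acid receptor RARA rose by 0.45 and the retinal reductase DHRS3 by 0.72. For DHRS3, stimulated replicate 4 was highest at 145 CPM, at least 2-fold above the mean of the other stimulated libraries. Of the 18 vitamin, retinoid and steroid genes of the list, which does not hold RDH10 or CRABP2, 9 rose and 5 fell (9 higher and 6 lower without replicate 4, 6 and 6 by library totals). HSD11B1, which regenerates active glucocorticoid, rose by 2.90 ± 0.30, the vitamin D hydroxylase CYP27B1 by 1.18 ± 0.24 and the aryl hydrocarbon receptor repressor AHRR by 1.66 ± 0.16. CYP27B1 too was highest in stimulated replicate 4, at 139 CPM, at least 2-fold above the mean of the other stimulated libraries. CYP27A1, sterol 27-hydroxylase, did not pass with all libraries (0.25, adjusted p = 0.779) but fell without replicate 4 (-1.58, adjusted p = 5.58e-04).

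Among the most abundant transcripts, iron storage rose and chaperones and matrix regulators fell. FTH1, ferritin heavy chain, had 9705, 9299.7, 9238 and 9410.2 CPM in M0 and 17979.7, 18689, 18416 and 21329 CPM after stimulation (log2 fold change 1.02 ± 0.08 SE, adjusted p = 9.73e-09). FTL, ferritin light chain, had 6734, 6920.2 and 6857 CPM in stimulated replicates 1 to 3 and 15491 CPM in replicate 4 against 4847 ± 87.3 CPM in M0, so its log2 fold change of 0.89 was 0.50 without that library. SOD2, the mitochondrial superoxide dismutase, had 2261, 2349, 2453 and 2503 CPM in M0 and 8104, 8507, 8495 and 7539.6 CPM after stimulation (log2 fold change 1.77 ± 0.09 SE, adjusted p = 2.28e-11). ANPEP, the membrane aminopeptidase CD13, rose by 1.49 ± 0.16 from 1603 ± 57.4 CPM, and CAP1, an actin-cycling protein, by 0.37 ± 0.05 from 13067 ± 234 CPM. In the other direction IGFBP3, a carrier of insulin-like growth factors, fell from 2289.9 ± 44.8 to 879 ± 67.0 CPM (-1.38 on the log2 scale), TIMP1, an inhibitor of metalloproteinases, fell by 1.20, and EEF1A1, the elongation factor that brings aminoacyl-tRNA to the ribosome, fell by 0.39.

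Genes of ribosome biogenesis fell. Ribosome biogenesis takes place mainly in the nucleolus, where RNA polymerase I transcripts are cut, modified and packed with ribosomal proteins, and its genes are known targets of MYC. All 23 tested genes of the ribosome biogenesis list fell, against a background of 28.3%, with a median log2 fold change of -1.05. Without replicate 4 the count was again 23 of 23 with a median of -1.01, and no other scaling tried turned a member. NPM1, nucleophosmin, had 796, 806, 855 and 829.5 CPM in M0 and 543, 543, 561 and 516 CPM after stimulation (log2 fold change -0.60 ± 0.07 SE, adjusted p = 1.03e-06). NOP56, a core protein of the box C/D particles that methylate ribosomal RNA, had 51.9, 49.5, 49.9 and 48.7 CPM in M0 and 20.8, 19.6, 20.4 and 21.8 CPM after stimulation (log2 fold change -1.28 ± 0.07 SE, adjusted p = 6.86e-11). The 2 groups did not overlap for either gene and replicate 4 lay close to the other stimulated libraries. The falls ran from -0.60 for NPM1 to -1.72 for PPAN, and took in the polymerase I subunits POLR1A (-1.24) and POLR1B (-0.86), the methyltransferase FBL (-0.70), nucleolin NCL (-0.67), the pseudouridine synthase DKC1 (-1.15) and the assembly factors RRS1 (-1.68) and RRP12 (-1.41). MYC itself had 99.5, 105, 97.6 and 101 CPM in M0 and 33.3, 33.0, 35.3 and 29.6 CPM after stimulation (log2 fold change -1.62 ± 0.07 SE, adjusted p = 2.25e-12).

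The ribosomal proteins followed with smaller falls. Of 45 cytosolic ribosomal protein genes tested, 35 fell and 3 rose, with a median of -0.36 (3 higher and 36 lower without replicate 4, median -0.39). RPL22 had the lowest value (-1.07), and RPS20 (0.41) and RPS9 (0.27) rose, although neither rise was called when libraries were scaled by their totals. Pseudogene copies of ribosomal protein genes share their sequence, so single members are uncertain. Hosts of small nucleolar RNAs, long noncoding transcripts that carry those guide RNAs in their introns, fell in parallel. GAS5 had 114, 114, 110.2 and 113 CPM in M0 and 32.7, 32.7, 30.1 and 49.8 CPM after stimulation (log2 fold change -1.64 ± 0.17 SE, adjusted p = 1.06e-06), SNHG1 fell by 1.60, SNHG5 fell by 1.52 and SNHG12 fell by 0.93.

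Cytosolic and mitochondrial chaperones fell too. Of 20 heat shock and chaperonin genes tested, 16 fell and 1 rose (1 higher and 16 lower without replicate 4, median -0.52). HSPA8, the constitutive cytosolic HSP70, had 2321, 2392, 2301 and 2382 CPM in M0 and 1024, 949, 1018 and 1043 CPM after stimulation (log2 fold change -1.22 ± 0.07 SE, adjusted p = 8.41e-11). HSPD1, the mitochondrial chaperonin HSP60, fell by 1.52 ± 0.07, its partner HSPE1 fell by 1.03 ± 0.10, HSP90AB1 fell by 0.96 ± 0.07 and the chaperonin subunit CCT2 fell by 0.87 ± 0.07. The inducible HSPA1A did not pass (0.30, adjusted p = 0.589), and its near-identical copy HSPA1B fell by 0.49.

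The integrated stress response and the unfolded protein response went opposite ways. In the integrated stress response, phosphorylation of a translation initiation factor leads to ATF4, which drives amino acid synthesis and transport. In the unfolded protein response, chaperones of the endoplasmic reticulum are made through ATF6 and XBP1. Of 22 integrated stress response genes, 18 passed as lower and 2 as higher, with a median of -0.85 (2 higher and 19 lower without replicate 4, median -0.97). Of 15 unfolded protein response genes, 11 passed as higher and 0 as lower, with a median of 0.71 (11 higher and 1 lower without replicate 4, median 0.76). Scaling by library totals left 2 higher and 19 lower in the first list and 9 higher and 3 lower in the second.

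PSAT1, the second enzyme of serine synthesis, had 56.0, 47.0, 52.7 and 55.7 CPM in M0, 3.02, 2.44 and 2.66 CPM in stimulated replicates 1 to 3 and 25.3 CPM in replicate 4 (log2 fold change -2.68 ± 0.58 SE, adjusted p = 0.00151, and -4.29 without replicate 4). PHGDH, the first enzyme of that path, had 38.5, 37.9, 37.2 and 36.8 CPM in M0, 2.62, 3.01 and 2.76 CPM in stimulated replicates 1 to 3 and 17.4 CPM in replicate 4 (log2 fold change -2.56 ± 0.48 SE, adjusted p = 4.59e-04, and -3.74 without it). Replicate 4 lay between M0 and the other stimulated libraries for both. SLC7A5, the large neutral amino acid transporter, had 224, 201, 203 and 209.6 CPM in M0 and 43.2, 46.3, 41.6 and 53.5 CPM after stimulation (log2 fold change -2.18 ± 0.08 SE, adjusted p = 2.76e-13), with no such gap. ASNS, asparagine synthetase, fell by 2.24 (-3.20 without replicate 4), SHMT2, the mitochondrial serine hydroxymethyltransferase, fell by 1.24, TRIB3 fell by 1.52 and ATF4 itself fell by 0.75. The 2 members that rose were the cystine transporter SLC7A11 (1.30) and the mTOR inhibitor DDIT4 (1.41).

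Among the chaperones of the endoplasmic reticulum, HSP90B1 had 274, 276, 269 and 272 CPM in M0 and 539.9, 519, 595 and 576 CPM after stimulation (log2 fold change 1.03 ± 0.06 SE, adjusted p = 2.29e-10). CALR, calreticulin, had 552, 573, 572 and 576 CPM in M0 and 1093, 1054, 1074 and 1425 CPM after stimulation (log2 fold change 1.03 ± 0.09 SE, adjusted p = 2.53e-08). HSPA5, the HSP70 of this compartment, rose by 0.71 ± 0.09, the disulphide isomerase PDIA4 by 1.15 ± 0.09, SDF2L1 by 1.30 ± 0.14 and CRELD2 by 1.66 ± 0.10. The groups did not overlap for any of these 6 genes. XBP1 rose by 0.39, whereas ATF6 did not pass with all libraries (-0.10, adjusted p = 0.178).

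**Figure D3:**
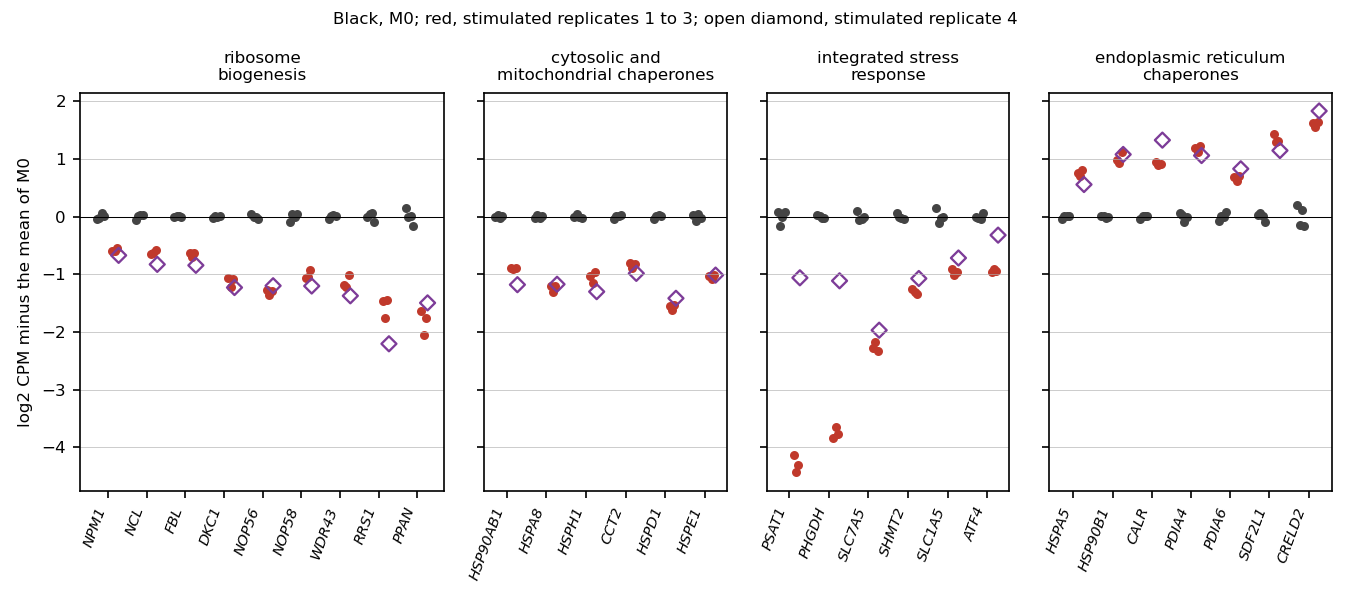
Log2 CPM of each library minus the mean of the 4 M0 libraries for genes of ribosome biogenesis, cytosolic and mitochondrial chaperones, the integrated stress response and endoplasmic reticulum chaperones. M0 libraries are black, stimulated replicates 1 to 3 red and replicate 4 an open diamond. Only the endoplasmic reticulum panel lies above 0 among the genes drawn, and replicate 4 lies farthest from the other stimulated libraries for PSAT1 and PHGDH.

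Letters of known elements were also counted in the promoter windows of these lists, with no test of the difference. The endoplasmic reticulum stress element, written as CCAAT, 9 bases of any kind and CCACG and searched on both strands, was in 0.0806% of all windows and 0.129% of tested genes. It was in 5 of 15 unfolded protein response genes (33.3%), but in 0 of 18 integrated stress response genes with a window. The E-box CACGTG, which MYC and its relatives bind and which reads the same on both strands, was in 7.43% of all windows, 9.84% of tested genes and 7 of 19 ribosome biogenesis genes with a window (36.8%), 3 of 15 unfolded protein response genes (20%) and 2 of 18 integrated stress response genes (11.1%). The ribosome biogenesis genes with it took in FBL, NOP2, UTP20 and MYBBP1A. Windows of 2 genes of each kind are shown because they carry these letters, which are in capitals: HSP90B1 (chr12:103930160-103930459, plus strand), CALR (chr19:12938359-12938658, plus strand), WDR43 (chr2:28894417-28894716, plus strand) and PES1 (chr22:30591861-30592160, minus strand). In HSP90B1 the stress element began at -194 and -89 and an E-box at -248, in CALR the stress element began at -225, and the E-boxes of WDR43 and PES1 began at the transcribed bases 4 and 14.
HSP90B1: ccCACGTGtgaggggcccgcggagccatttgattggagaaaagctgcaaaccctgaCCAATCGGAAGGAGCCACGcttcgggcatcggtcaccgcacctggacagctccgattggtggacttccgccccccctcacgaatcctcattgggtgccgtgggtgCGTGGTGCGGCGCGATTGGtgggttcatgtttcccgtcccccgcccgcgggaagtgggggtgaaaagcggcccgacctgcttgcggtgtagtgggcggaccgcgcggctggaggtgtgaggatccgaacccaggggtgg
CALR: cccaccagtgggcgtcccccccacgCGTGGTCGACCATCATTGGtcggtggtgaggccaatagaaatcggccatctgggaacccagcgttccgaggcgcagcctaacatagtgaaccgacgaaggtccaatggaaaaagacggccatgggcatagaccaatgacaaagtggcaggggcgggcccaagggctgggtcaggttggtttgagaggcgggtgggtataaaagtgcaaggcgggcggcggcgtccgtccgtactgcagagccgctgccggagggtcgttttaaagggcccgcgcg
WDR43: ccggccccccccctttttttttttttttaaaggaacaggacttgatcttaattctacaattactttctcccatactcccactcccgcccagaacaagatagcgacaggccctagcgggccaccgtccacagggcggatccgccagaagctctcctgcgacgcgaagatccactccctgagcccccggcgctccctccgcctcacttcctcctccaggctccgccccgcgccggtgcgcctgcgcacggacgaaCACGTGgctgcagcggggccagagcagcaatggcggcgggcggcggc
PES1: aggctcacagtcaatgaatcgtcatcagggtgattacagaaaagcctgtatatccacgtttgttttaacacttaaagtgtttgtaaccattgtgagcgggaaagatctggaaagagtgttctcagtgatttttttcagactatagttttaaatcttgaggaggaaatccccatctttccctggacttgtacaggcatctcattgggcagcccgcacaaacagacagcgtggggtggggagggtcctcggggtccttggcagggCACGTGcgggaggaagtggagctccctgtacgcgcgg

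WDR43, a factor of the small-subunit processome, fell from 90.7, 94.0, 94.8 and 94.1 CPM to 41.1, 40.0, 46.2 and 36.1 CPM (log2 fold change -1.19 ± 0.07 SE, adjusted p = 2.97e-10), and PES1, a factor of large-subunit assembly, fell by 0.80 ± 0.07.

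**Figure D4:**
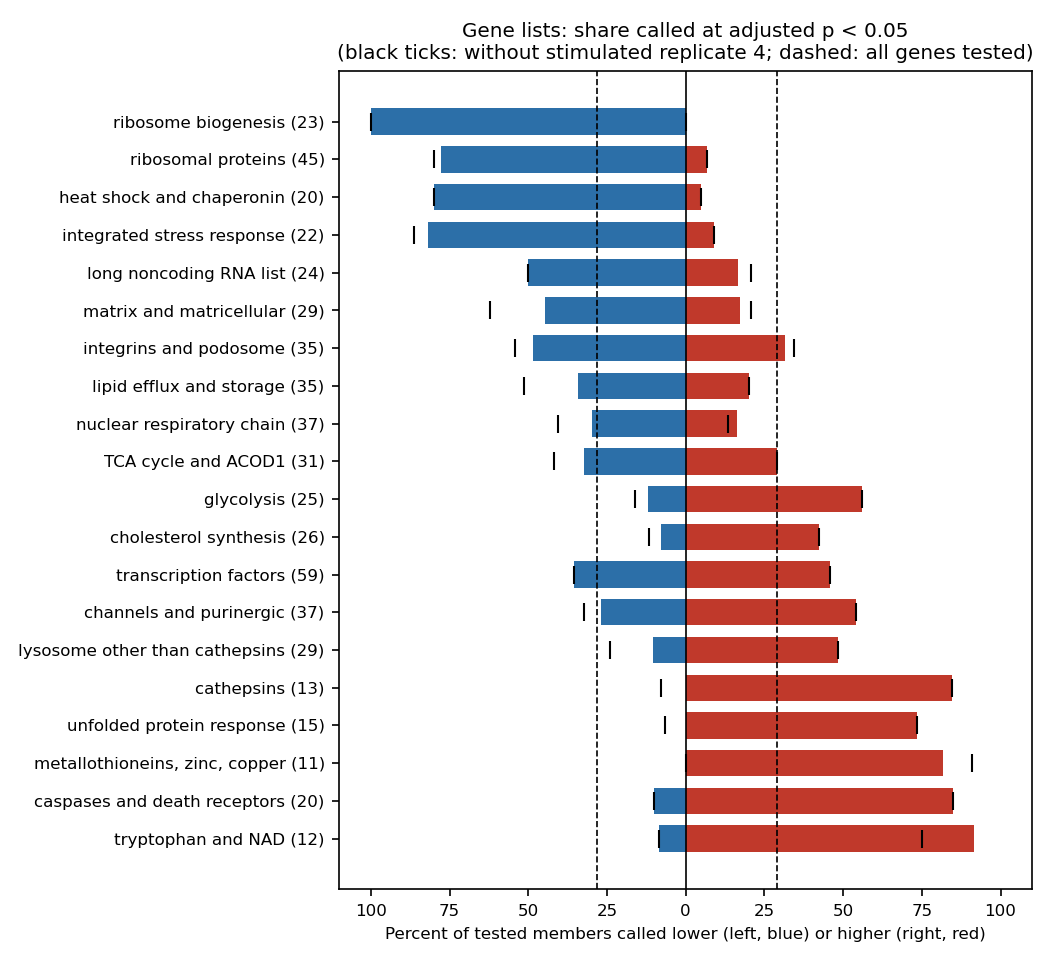
Percent of the tested members of 20 gene lists called lower (blue, left) or higher (red, right) after stimulation at an adjusted p under 0.05, with the number tested in brackets. Dashed lines give the shares over all genes tested, 28.3% lower and 29.1% higher, and black ticks give the shares without stimulated replicate 4, which moved the matrix, lipid and lysosome lists and left the ribosome biogenesis, ribosomal protein and heat shock lists nearly in place.

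Central carbon metabolism changed unevenly. ACOD1, which decarboxylates the cycle intermediate cis-aconitate to itaconate, had 1.59, 0.901, 0.796 and 0.726 CPM in M0 and 133, 137, 148 and 151 CPM after stimulation (log2 fold change 7.15 ± 0.28 SE, adjusted p = 2.72e-11). The groups did not overlap, which was a condition of naming this gene, and replicate 4 lay at the top of a narrow range. Of 25 glycolysis genes tested, 14 were called higher and 3 lower (14 higher and 4 lower without replicate 4, 9 and 9 by library totals), with a median of 0.30. PFKFB3, which makes the activator of phosphofructokinase, had 82.9, 81.5, 80.3 and 82.0 CPM in M0 and 283, 272, 285 and 285 CPM after stimulation (log2 fold change 1.78 ± 0.05 SE, adjusted p = 5.83e-14). Hexokinases HK1 and HK2 rose by 1.01 ± 0.05 and 0.50 ± 0.12, and the glucose transporter SLC2A3 by 1.17 ± 0.15. LDHB, a lactate dehydrogenase subunit, fell by 1.57 ± 0.37 and ENO1 fell by 0.47 ± 0.04, while LDHA did not pass (0.04, adjusted p = 0.611). In the pentose phosphate path, transketolase TKT fell by 0.54 ± 0.07, and the count was 2 higher and 4 lower of 7 (1 higher and 5 lower without replicate 4, 0 and 4 by library totals).

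The tricarboxylic acid cycle list was split, with 9 of 31 members higher and 10 lower, near the background shares (9 higher and 13 lower without replicate 4, 5 and 20 by library totals). Isocitrate dehydrogenase IDH3A fell by 0.82 ± 0.06 and pyruvate carboxylase PC fell by 0.75 ± 0.07, while SDHA of succinate dehydrogenase rose by 0.62 ± 0.16 and IDH2 by 0.89 ± 0.14. Of 37 nuclear genes of the respiratory chain, 6 were called higher and 11 lower (5 higher and 15 lower without replicate 4, 1 and 23 by library totals), their median being -0.10. The 13 mitochondrial-encoded genes gave 4 higher and 0 lower, all within 0.33 on the log2 scale (6 higher and 0 lower without replicate 4, 0 and 2 by library totals).

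Tryptophan and NAD genes rose. Of 12 tested, 11 rose and 1 fell (9 higher and 1 lower without replicate 4, median 0.81). Past the interferon-induced IDO1, kynureninase KYNU rose by 0.69 ± 0.09, kynurenine monooxygenase KMO by 1.59 ± 0.35, QPRT, which opens the path from quinolinate to NAD, by 1.45 ± 0.21, and NAMPT and NAPRT of the salvage paths by 1.08 ± 0.12 and 0.93 ± 0.09. NMNAT1, the nuclear enzyme of the last step, fell by 0.50 ± 0.10. KMO was highest in stimulated replicate 4, at 53.1 CPM, at least 2-fold above the mean of the other stimulated libraries. Without replicate 4, HAAO (adjusted p = 0.247) and TDO2 (adjusted p = 0.0682) no longer passed, and leaving out another single library gave HAAO adjusted p-values of up to 0.0981. Arginine and polyamine genes were mixed. The arginine transporter SLC7A1 fell by 1.70 ± 0.13, ornithine decarboxylase ODC1 fell by 0.94 ± 0.14 and argininosuccinate synthase ASS1 fell by 0.73 ± 0.14, while SAT1, which acetylates polyamines for removal, rose by 0.96 ± 0.11. NOS2, which makes nitric oxide in mouse macrophages, did not pass (-0.44, adjusted p = 0.567).

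Lipid genes leaned on replicate 4. Of 35 lipid efflux, storage and fatty acid genes, 7 rose and 12 fell with all libraries, and 7 rose and 18 fell without replicate 4. PPARG, the nuclear receptor of lipid uptake, had 84.7, 90.2, 86.3 and 84.3 CPM in M0 and 10.2, 9.54, 11.5 and 36.6 CPM after stimulation (log2 fold change -2.35 ± 0.34 SE, adjusted p = 5.14e-05, and -3.05 without replicate 4). The efflux transporter ABCG1 fell by 1.91 ± 0.11, lipoprotein lipase LPL fell by 1.91 ± 0.18, the desaturase SCD fell by 1.47 ± 0.10 and acetyl-CoA carboxylase ACACA fell by 1.00 ± 0.07. NR1H3, the liver X receptor alpha, did not pass with all libraries (-0.83, adjusted p = 0.172) and fell without replicate 4 (-1.98, adjusted p = 4.74e-10). The same held for the apolipoprotein APOE (-0.70 against -1.13) and the acid lipase LIPA (0.02 against -1.10). In cholesterol synthesis 11 of 26 genes passed as higher and 2 as lower (11 higher and 3 lower without replicate 4, 8 and 9 by library totals), with a median of 0.19. TM7SF2, a sterol reductase, rose by 1.67 ± 0.21, ACAT2 by 0.86 ± 0.13 and INSIG1, a brake on sterol synthesis, by 0.62 ± 0.08.

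Most metallothionein, zinc and copper genes of the list rose. Of 11 metallothionein, zinc and copper genes, 9 passed as higher and 0 as lower, with a median of 1.61 (10 higher and 0 lower without replicate 4, median 1.38). MT2A, the most abundant metallothionein here, had 2.49, 2.10, 2.14 and 2.13 CPM in M0 and 56.1, 57.4, 56.7 and 13.0 CPM after stimulation (log2 fold change 4.37 ± 0.45 SE, adjusted p = 2.34e-06). SLC39A8, a zinc importer, had 12.1, 13.6, 13.9 and 14.2 CPM in M0 and 124, 123, 137 and 59.9 CPM after stimulation (log2 fold change 3.05 ± 0.23 SE, adjusted p = 4.98e-08). Replicate 4 was the lowest stimulated library for both and still lay above all M0 libraries. MT1E, MT1F and MT1G rose by 4.38, 3.99 and 3.76, with the caution that these genes are close copies and that MT1G moved to 4.64 without M0 replicate 3. The list does not hold the zinc importer SLC39A10, which fell (-2.61, or -2.65 without replicate 4). The zinc exporter SLC30A1 rose by 1.33 ± 0.08 and the copper transporter SLC31A2 by 1.61 ± 0.14. Of 12 iron genes, 6 rose and 3 fell (6 higher and 4 lower without replicate 4, 4 and 4 by library totals). The falls were of the transferrin receptor TFRC (-0.48), the ferric reductase CYBRD1 (-1.23) and HAMP, the iron hormone hepcidin (-1.78, or -2.70 without replicate 4). Among antioxidant genes 8 rose and 6 fell of 18 (8 higher and 5 lower without replicate 4, 7 and 10 by library totals). NQO1 rose by 0.80 ± 0.13 and heme oxygenase HMOX1 by 1.15 ± 0.28, while glutathione reductase GSR fell by 0.83 ± 0.07 and thioredoxin TXN fell by 0.42 ± 0.06. HMOX1 was highest in stimulated replicate 4, at 145 CPM, at least 2-fold above the mean of the other stimulated libraries.

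Cathepsins, the proteases of the lysosome, rose. Of 13 tested, 11 rose and 0 fell, with a median of 1.00 (11 higher and 1 lower without replicate 4, median 0.73). CTSS, the cysteine protease that trims the class II invariant chain, had 439.7, 472, 471 and 471 CPM in M0 and 2128, 2175, 2249 and 2922 CPM after stimulation (log2 fold change 2.35 ± 0.09 SE, adjusted p = 7.15e-13). LGMN, the asparaginyl endopeptidase legumain, had 6.97, 7.36, 6.87 and 7.55 CPM in M0 and 41.7, 45.0, 43.3 and 23.8 CPM after stimulation (log2 fold change 2.42 ± 0.16 SE, adjusted p = 2.67e-09). CTSH rose by 1.78 ± 0.15 and CTSC, which activates serine proteases of granules, by 1.35 ± 0.32 (0.73 without replicate 4). CTSB, an abundant member, did not pass with all libraries (-0.05) and fell without replicate 4 (-0.36, adjusted p = 2.12e-06). Of all 42 lysosome genes, 25 rose and 3 fell with all libraries, 25 and 8 without replicate 4, and 13 higher and 8 lower under scaling by library totals. TFEB, a master regulator of lysosome genes, fell by 0.92.

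Cell death genes rose around the inflammatory caspases while receptors for TRAIL fell. Of 20 caspase, death receptor and inhibitor genes, 17 passed as higher and 2 as lower, with a median of 1.08 (17 higher and 2 lower without replicate 4, median 1.04). CASP5, which senses cytosolic LPS together with CASP4, had 0.149, 0.0500, 0.209 and 0.484 CPM in M0 and 5.65, 5.75, 6.87 and 5.70 CPM after stimulation (log2 fold change 4.71 ± 0.29 SE, adjusted p = 3.35e-10, and 5.36 without M0 replicate 4). FAS, the death receptor, had 0.0498, 0.0500, 0.0419 and 0.145 CPM in M0 and 2.28, 2.90, 2.86 and 3.86 CPM after stimulation (log2 fold change 5.28 ± 0.34 SE, adjusted p = 6.75e-10). CASP1 rose by 3.95 ± 0.25, CASP4 by 1.77 ± 0.07, the pore-forming gasdermin GSDMD by 1.65 ± 0.07, and the necroptosis genes RIPK3 and MLKL by 1.33 ± 0.13 and 1.42 ± 0.07. TNFSF10, which encodes TRAIL, rose by 4.96 ± 0.76, or 3.95 without replicate 4, and its death receptors TNFRSF10A and TNFRSF10B fell, with log2 fold changes of -1.10 and -0.66, beside the decoy TNFRSF10D described above. In the BCL2 family 5 rose and 1 fell, with BCL2 itself higher by 1.37 ± 0.06 and the pro-death PMAIP1 lower (-0.76), and the counts turned with the scaling (4 higher and 2 lower without replicate 4, 2 and 5 by library totals). Among 25 p53 targets, 9 rose and 10 fell (9 higher and 8 lower without replicate 4, 8 and 14 by library totals), with FDXR higher by 2.11 ± 0.42 and SPATA18 (-2.48) lower.

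Matrix genes fell more often than they rose, and the difference widened without replicate 4. Of 29 fibronectin, collagen and matricellular genes, 5 rose and 13 fell with all libraries, and 6 rose and 18 fell without it. TNC, tenascin C, fell by 5.57 ± 0.34, CCN3 fell by 3.58 ± 0.43, MFGE8, a bridge to apoptotic cells, fell by 2.12 ± 0.23, and the basement membrane proteoglycan HSPG2 fell by 1.47 ± 0.25. THBS1, thrombospondin 1, went the other way, from 36.7, 36.8, 38.8 and 41.1 CPM in M0 to 734, 879, 919 and 396 CPM after stimulation (log2 fold change 4.25 ± 0.27 SE, adjusted p = 1.23e-08). SPP1, osteopontin, did not pass with all libraries (0.27) and fell without replicate 4 (-0.89, adjusted p = 4.91e-06).

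Integrins changed subunit by subunit. Of 35 integrin and podosome genes, 11 rose and 17 fell (12 higher and 19 lower without replicate 4, median -0.44). ITGAM, the alpha chain of complement receptor 3, had 201, 201, 188 and 194 CPM in M0 and 53.9, 53.4, 47.2 and 71.2 CPM after stimulation (log2 fold change -1.80 ± 0.13 SE, adjusted p = 1.31e-08). The laminin receptor chains ITGA6 and ITGA3 fell, with log2 fold changes of -2.39 ± 0.07 and -2.01 ± 0.14, and the fibronectin receptor chain ITGA5 fell by 0.62 ± 0.09. ITGA1, a collagen receptor chain, rose by 2.28 ± 0.30 and ITGB8, which activates TGF-beta, by 1.93 ± 0.18. The podosome proteins DBN1, CTTN, FSCN1 and VCL fell, with log2 fold changes of -1.52, -1.11, -1.08 and -0.67, while WAS and CORO1A of leukocyte actin rose by 1.03 and 0.78.

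Of 15 metalloproteinase genes, 7 rose, 1 fell and 7 did not pass (7 higher and 2 lower without replicate 4, 5 and 2 by library totals). MMP12, macrophage elastase, had 4.83, 5.00, 4.90 and 4.30 CPM in M0 and 43.6, 44.4, 42.5 and 42.3 CPM after stimulation (log2 fold change 3.18 ± 0.22 SE, adjusted p = 5.23e-09). MMP3, stromelysin, rose by 2.24 ± 0.38, and the membrane-anchored MMP25 and MMP14 by 1.42 ± 0.38 and 0.49 ± 0.05. ADAM19 fell by 3.34 ± 0.43. MMP1, a collagenase, did not pass with all libraries (0.62, adjusted p = 0.228) and rose without replicate 4 (0.95, adjusted p = 0.00127). Among protease inhibitors TIMP3 fell by 1.86, while SLPI rose by 1.66. In coagulation and fibrinolysis, TFPI2 rose by 1.97 ± 0.43, the protein C receptor PROCR by 1.93 ± 0.07 and thrombomodulin THBD by 0.90 ± 0.09, and the thrombin receptor F2R fell by 1.33 ± 0.32. F3, tissue factor, did not pass (-0.31, adjusted p = 0.167).

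Receptors and sensors of macrophages changed in both directions. NOD2, a cytosolic sensor of bacterial peptidoglycan, had 0.348, 0.0500, 0.880 and 0.532 CPM in M0 and 12.8, 13.6, 12.9 and 9.68 CPM after stimulation (log2 fold change 4.69 ± 0.26 SE, adjusted p = 2.44e-10). CD14, the co-receptor of LPS, rose by 1.81 ± 0.19, the lectins CLEC5A and CLEC4E by 2.96 ± 0.20 and 2.91 ± 0.40, and the Fc receptor signalling chain FCER1G by 2.61 ± 0.14. The scavenger receptors MARCO and OLR1 fell, with values of -2.91 ± 0.50 and -1.58 ± 0.56, or -3.90 and -3.04 without replicate 4. OLR1 lay near the threshold, and leaving out a single library other than replicate 4 gave adjusted p-values of up to 0.0719. All 6 Fc receptor genes that were called were higher, of 7 tested (6 higher and 1 lower without replicate 4, 6 and 0 by library totals). TREM2 showed 0.74 with all libraries and fell without replicate 4 (-1.14, adjusted p = 2.53e-11), and FCGR3A showed 0.33 and -1.24 in the same way. TLR4, the LPS receptor, did not pass with all libraries (-0.15) and fell without replicate 4 (-0.61, adjusted p = 2.92e-05).

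Ion channels, purinergic receptors and G protein-coupled receptors changed in both directions. TRPM2, a calcium channel opened by ADP-ribose, had 10.6, 8.06, 8.38 and 8.13 CPM in M0 and 106, 107, 101 and 98.4 CPM after stimulation (log2 fold change 3.55 ± 0.10 SE, adjusted p = 1.91e-14). Of 22 channel genes, 11 rose and 7 fell (12 higher and 8 lower without replicate 4, 8 and 9 by library totals). HVCN1, the proton channel that balances the phagocyte oxidase, rose by 1.65 ± 0.28, ORAI1 and STIM1 of store-operated calcium entry by 0.95 ± 0.11 and 0.79 ± 0.09, and the calcium-activated potassium channel KCNMA1 fell by 2.52 ± 0.20. Of 15 purinergic and adenosine genes, 9 rose and 3 fell (8 higher and 4 lower without replicate 4, 6 and 4 by library totals). P2RX7, the ATP-gated channel upstream of inflammasomes, rose by 1.20 ± 0.22, the adenosine receptor ADORA2A by 2.02 ± 0.27, adenosine deaminase ADA by 2.45 ± 0.28 and the ectonucleotidase ENTPD1 by 2.18 ± 0.57 (1.23 without replicate 4). FPR2, a formyl peptide receptor, rose by 4.23 ± 1.02 (3.51 without stimulated replicate 4 and 5.48 without M0 replicate 3), PTAFR, the receptor of platelet-activating factor, by 2.46 ± 0.44 (1.66), and GPR183, which follows oxysterols, by 2.30 ± 0.23, whereas CMKLR1, the chemerin receptor, fell by 1.39 ± 0.29.

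Eicosanoid genes changed in both directions. PLA2G4A, which frees arachidonate, had 8.61, 8.96, 8.38 and 9.04 CPM in M0 and 90.5, 90.3, 104 and 41.2 CPM after stimulation (log2 fold change 3.22 ± 0.22 SE, adjusted p = 9.27e-09). PTGS2, the inducible cyclooxygenase, had 2279.8, 2121, 2288 and 2382 CPM in M0 and 8921, 9051, 9499.7 and 2329.6 CPM after stimulation (log2 fold change 1.72 ± 0.40 SE, adjusted p = 0.00251), but 2.01 without replicate 4 (adjusted p = 4.98e-05). Replicate 4 lay within the range of the M0 libraries for this gene, so the rise was in the other 3 stimulated libraries. PTGS1, the constitutive form, fell by 1.71 ± 0.08, LTA4H fell by 0.83 ± 0.06, and ALOX5 rose by 1.45 ± 0.35, or 0.78 without replicate 4. Over the list 5 rose and 4 fell of 13 (5 higher and 5 lower without replicate 4, 5 and 4 by library totals), and the median went from 0.66 to -0.02 without replicate 4.

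Transcription factors of the list were called in both directions, 27 higher and 21 lower of 59 (27 higher and 21 lower without replicate 4, 23 and 23 by library totals). NFE2 rose by 3.25 ± 0.87, RUNX3 by 1.81 ± 0.11, CEBPE by 1.56 ± 0.20, BATF by 1.15 ± 0.12 and SPI1, the macrophage lineage factor PU.1, by 0.56 ± 0.12. KLF2 fell by 2.10 ± 0.24, KLF4 fell by 1.73 ± 0.13, EGR2 fell by 1.52 ± 0.10, BATF3 fell by 1.37 ± 0.23, MAF fell by 0.87 ± 0.18 and the lysosome and osteoclast factor MITF fell by 1.01 ± 0.17. HESX1 rose by 4.03 with all libraries and by 2.10 without replicate 4. In Notch signalling the ligands DLL1 and DLL4 rose by 2.34 ± 0.35 and 2.93 ± 0.32 and the receptor NOTCH1 by 1.17 ± 0.07, while the ligand JAG1 fell by 1.86 ± 0.15. WNT5A rose by 2.25 ± 0.38, and LTBP1, which anchors latent TGF-beta, fell by 3.40 ± 0.54. Of 43 axon guidance and cell contact genes, 18 rose and 14 fell (18 higher and 14 lower without replicate 4, 15 and 18 by library totals). SEMA4A and SEMA4D, semaphorins of immune cells, rose by 1.83 ± 0.26 and 1.22 ± 0.14, netrin NTN1 by 1.75 ± 0.12, and the receptor tyrosine kinase EPHA2 fell by 2.08 ± 0.37. EZH2, the histone H3 lysine methyltransferase of polycomb, rose by 1.15 ± 0.07 among chromatin genes, of which 7 rose and 6 fell of 28 (9 higher and 8 lower without replicate 4, 4 and 14 by library totals). Cell cycle genes gave 6 higher and 7 lower of 35 (6 higher and 7 lower without replicate 4, 4 and 14 by library totals), with CCND2 lower (-3.05 ± 0.54), CCNE2 higher by 2.15 ± 0.30 and the inhibitor CDKN1B higher by 1.03 ± 0.11, while MKI67, the proliferation marker, did not pass (-0.77, adjusted p = 0.112).

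Some genes were at 0 counts in every library of a group. CLEC10A, a galactose-binding lectin, had 0 counts in all M0 libraries and 1.37, 1.71, 1.45 and 6.68 CPM after stimulation, which is at least 79.1-fold above a limit of 3 counts summed over the M0 libraries, or 42.6-fold without replicate 4, and the calcium-binding protein S100B at least 36.2-fold and 17.4-fold. The chemokine CXCL9 was at least 33607-fold higher. In the other direction RNASE7, an antimicrobial ribonuclease, had 0.597, 0.50, 0.461 and 0.629 CPM in M0 and 0 counts after stimulation, at least 13.5-fold lower. NMUR1, MIR100HG, CDCA7 and CRHR2 had 0 counts after stimulation as well, from only 10 to 16 counts in M0.

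Among long noncoding RNAs, LINC02528 was at 0 in M0 and had 1.60, 1.71, 2.76 and 18.8 CPM after stimulation, at least 175-fold higher, or at least 57.0-fold without replicate 4. NRIR, a noncoding transcript known to respond to interferon, rose by 6.72 with all libraries and 4.88 without replicate 4, MIR3945HG by 4.42 ± 0.45, MAP3K5-AS1 by 3.69 ± 0.33 and HCP5, in the major histocompatibility region, by 3.06 ± 0.17. LINC00973 fell by 3.21 ± 0.27, DNAH10OS fell by 2.23 ± 0.18, DLGAP1-AS2 fell by 2.00 ± 0.15 and ST3GAL6-AS1 fell by 1.92 ± 0.12. PVT1, the neighbour of MYC on chromosome 8, had 7.26, 6.91, 8.04 and 7.64 CPM in M0 and 2.17, 1.76, 1.55 and 1.61 CPM after stimulation (log2 fold change -2.07 ± 0.13 SE, adjusted p = 5.25e-10). Whether counting used strand is unknown here, which makes transcripts antisense to another gene uncertain.

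Among genes called with all libraries and of at least 3 in average log2 CPM, the 10 whose change shrank most without stimulated replicate 4 were interferon-stimulated genes, with an exception. IFI44L had 5.42, 6.01 and 4.71 CPM in stimulated replicates 1 to 3 and 242 CPM in replicate 4, and its log2 fold change was 8.66 with and 5.08 without that library. ISG15 had 2.89, 3.60, 3.69 and 4.11 CPM in M0 and 13.4, 15.6, 13.9 and 184 CPM after stimulation, 3.98 with and 2.00 without it. IFI27, IFI44, RSAD2, OASL, MX1 and SIGLEC1 showed the same, with values of 8.38, 6.23, 7.49, 5.19, 5.56 and 6.48 falling to 4.81, 3.66, 5.05, 3.00, 3.61 and 4.68. The exception, GALM, encodes the sugar enzyme galactose mutarotase. GALM had 2.74, 3.95, 2.89 and 3.48 CPM in M0, 4.96, 5.70 and 5.41 CPM in stimulated replicates 1 to 3 and 132 CPM in replicate 4. It passed in both fits, at 3.49 with and 0.72 without that library, so a single library set the size of the change. All of these genes remained higher than M0 without replicate 4.

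In the other direction the potassium channel KCNN3 rose by 4.39 with and 4.76 without replicate 4, the growth factor CSF2 by 4.47 and 4.79, BMP8A by 3.02 and 3.36, BOC by 1.12 and 1.47 and LINC01705 by 1.25 and 1.60. COL6A3 (-1.68 with, -1.32 without) and S100A16 (-1.11 with, -0.76 without) fell less without it. BOC, LINC01705 and S100A16 lay near the threshold, since leaving out single libraries other than replicate 4 gave adjusted p-values of up to 0.109, 0.0687 and 0.0647. Over all genes, 584 calls were lost and, among genes tested in both fits, 944 were gained when replicate 4 was left out, 435 of the gains higher and 509 lower. A further 8195 genes were called both ways in the same direction, and 0 were called in opposite directions. Of the well-expressed genes, 338 were above all M0 libraries in replicate 4 and below all M0 libraries in replicates 1 to 3, and 341 showed the opposite. Replicate 4 was also compared with the mean of the other stimulated libraries, list by list. No well-expressed member differed 2-fold in the ribosome biogenesis (21 genes), ribosomal protein (45), heat shock (16), nuclear respiratory chain (32), cholesterol (19) or cell cycle (17) lists. Over all 7872 well-expressed genes, 474 differed 2-fold from the median of those libraries, 282 of them higher. Taken singly, a list this short can hold 0 at that share, and no difference from all genes was tested. At least 2-fold higher in replicate 4 were 9 of 38 lysosome genes, 8 of 29 lipid genes, 7 of 14 scavenger and pattern receptor genes and 8 of 25 G protein-coupled receptor genes. What set this library apart was not tested.

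**Figure D5:**
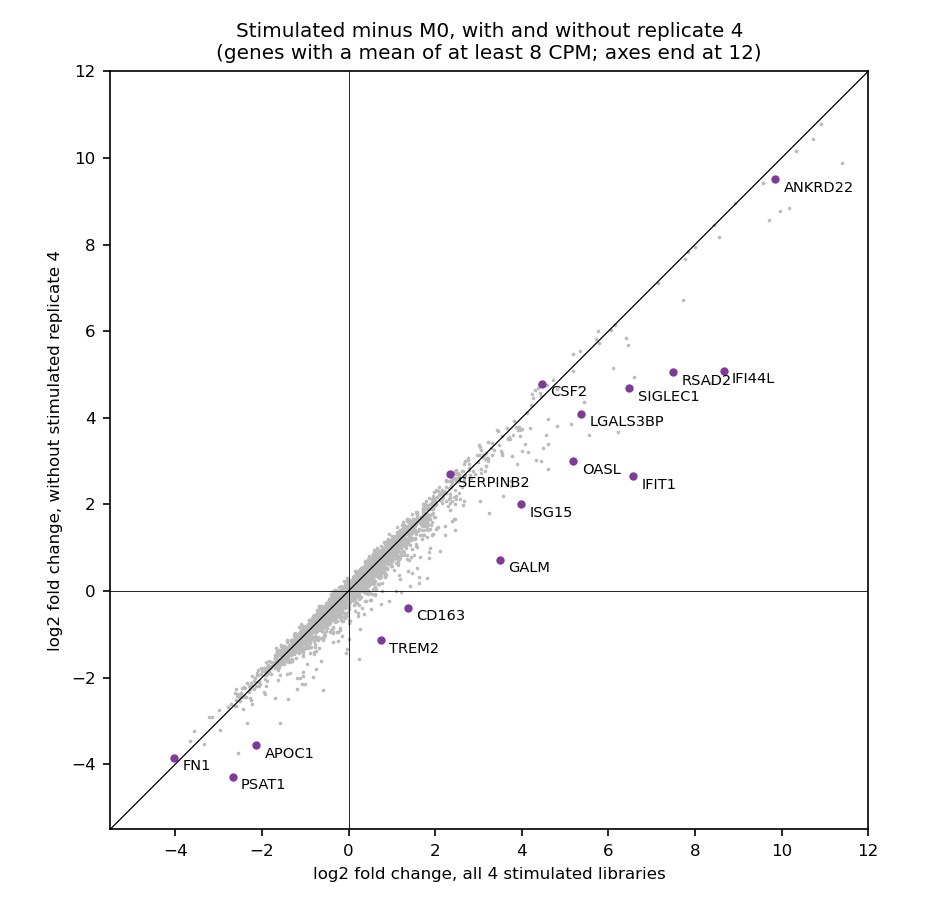
Log2 fold change of stimulated against M0 for genes with a mean of at least 8 CPM, with all 4 stimulated libraries (x axis) and without stimulated replicate 4 (y axis), with the line of equality. Named genes are purple. Interferon-stimulated genes such as IFIT1 (6.57 and 2.65) and GALM lie far below the line, ANKRD22 and FN1 near it, and TREM2 changes sign.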

How the data were processed

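The files hold gene counts deposited by the authors. The tools HISAT2 and HTSeq and the build GRCh38 are named in the submitters' processing notes, and per the file headers the annotation was GRCh38.p13. Per the labels, libraries were made with the VAHTS Universal V6 kit. Strand use and the treatment of reads shared between copies are not given in the sources used here. The table lists 60664 genes, of which 20055 have no symbol and are not named. It held 0 columns of other samples.

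All 16 libraries entered 1 fit with edgeR 4.0.16 in R 4.3.3, using TMM factors, the default low-count filter of filterByExpr, robust quasi-likelihood dispersions with 12 residual degrees of freedom and the contrast stimulated minus M0, adjusted over the 15301 genes kept. A gene was called at an adjusted p under 0.05. CPM values are scaled by the TMM factors. On simulated counts over 13983 genes, genes given a log2 change of 0.5 were called in 68.7% of cases, those of 1 in 85.1% and those of 2 in 100%, beside 7 false calls. The simulation gave every gene the same dispersion around its M0 mean and changed only 67, 67 and 65 genes at these sizes. No simulated library stood apart as stimulated replicate 4 does, so these rates need not hold for the real libraries.

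The gene lists and members were chosen with earlier results of these data known. The lists hold 1075 distinct genes in 34 lists, 1008 of them tested, and the report divides some lists by role. The text names the 15 largest rises and 15 largest falls outside the set-aside classes. These were ranked among genes of at least 3 in average log2 CPM that also passed without replicate 4 and did not overlap between the groups. It also names the 5 largest changes in CPM each way under the same conditions, up to 4 members of a list by smallest p plus those that replicate 4 turns or that the account needs, the 10 genes each way that replicate 4 moves most, genes at 0 in a group, and the 5 largest long noncoding changes each way with 1 or more in average log2 CPM. Some genes that this rule would name are not reported here. Where 0 counts were found, a bound was taken at 3 counts over the group, and it covers counting error only. Replicates were compared by chi-square over genes, and no pair agreed within sampling noise. Promoter windows came from RefSeq with the first listed window of a symbol. Alternatives were other scalings, DESeq2 1.42.0, limma-voom 3.58.1, other filters, a minimum fold of 1.5, fits of only the 2 groups, with a replicate block or without each library in turn. Scripts used Python 3.11.15, numpy 2.4.6, pandas 2.3.3 and matplotlib 3.10.9.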

Additional observations from a re-analysis of the deposited data

Results flagged for a closer look

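A sample was singled out where the gap between the highest or lowest library of a group of 4 and its nearest neighbour, divided by the range of the group, passed the 95% critical value of Dixon's test for 4 samples. Over 295 genes named here, each in both groups, this happened 129 times in 590 groups. Chance alone singles out about 1 in 20 groups of genes chosen without regard to their spread. Some of these genes were named because replicate 4 moves them, so that rate is no yardstick for this count. Of these libraries 104 were stimulated replicate 4 and 18 were M0 libraries. Values are TMM-scaled CPM of the library that stood out, and the reasons were not tested.

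Stimulated replicate 4 was the highest of its group for many interferon-stimulated genes, with 141 CPM for IFI27, 160 for IFI44, 242 for IFI44L, 213 for IFIT1, 184 for ISG15 and 95.6 for MX1. The same library stood out at 89.0 CPM for OASL, 319 for RSAD2, 165 for SIGLEC1, 102 for LGALS3BP and 21.9 for NRIR. Among the largest rises and the genes at 0 in M0 it was the highest with 44.5 CPM for ANKRD22, 49.8 for SECTM1, 3.28 for S100B, 18.8 for LINC02528 and 6.68 for CLEC10A, and among the remaining genes that leaned on it with 132 for GALM. Receptors in which it was the highest had 1017 CPM for CSF1R, 1849 for FCER1G, 17.6 for FCGR3A, 62.5 for TREM2, 58.8 for OLR1, 46.9 for TLR4, 2.25 for FPR2 and 60.4 for PTAFR. In oxidase and antioxidant genes its values were 381 CPM for CYBB, 44.4 for NCF4, 105 for NCF1B and 145 for HMOX1. Lipid genes gave 240.3 CPM for APOE, 616 for LIPA, 454 for LPL, 133 for NR1H3, 36.6 for PPARG and 243 for SCD. Cathepsins gave 2323 CPM for CTSB, 333 for CTSC and 2922 for CTSS. Metal genes gave 15491 CPM for FTL, 2.19 for HAMP and 298 for SLC31A2. Vitamin and retinoid genes gave 58.5 CPM for ALDH1A2, 60.5 for CYP27A1, 139 for CYP27B1 and 145 for DHRS3. Amino acid, tryptophan and nucleotide genes gave 17.4 CPM for PHGDH, 25.3 for PSAT1, 40.8 for ASS1, 53.1 for KMO, 5287 for TDO2, 29.5 for ADA and 8.12 for ENTPD1. Transcription factors gave 432 CPM for ATF4, 5.41 for HESX1, 40.7 for MITF and 402 for SPI1. Carbon metabolism, eicosanoid and matrix genes gave 85.8 CPM for IDH2, 46.6 for ALOX5 and 11914 for SPP1. The last of these high values were 1425 CPM for CALR, 959 for RPS20, 49.8 for GAS5, 159.5 for CASP1, 11.7 for TNFSF10 and 28.8 for SEMA4A.

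Stimulated replicate 4 was the lowest of its group for proteases, serpins and clotting genes, with 335 CPM for MMP1, 152 for MMP3, 256 for SERPINB2, 204 for SERPINB7, 34.2 for F3, 68.8 for PROCR, 173 for TFPI2, 23.8 for LGMN and 2770 for ANPEP. Receptor genes had 12.3 CPM for TNFRSF10A, 41.0 for TNFRSF10B, 20.8 for TNFRSF10D, 45.2 for PDGFRA, 0.806 for PDGFRB and 74.2 for CLEC5A. Integrin, actin and matrix genes had 32.5 CPM for CTTN, 14.5 for DBN1, 212 for ITGA1, 50.0 for MYO1G and 0.518 for COL6A3. Metal, sterol and antioxidant genes had 1.5 CPM for MT1F, 13.0 for MT2A, 308 for TFRC, 299.9 for INSIG1 and 60.6 for NQO1. Genes of metabolism, channels and transport had 452 CPM for HK2, 43.7 for IDH3A, 2329.6 for PTGS2, 50.3 for STIM1, 4.09 for KCNN3 and 48.6 for SLC7A1. The remaining low values were 1538 CPM for HSP90AB1, 205 for XBP1, 10.1 for UTP20, 299.8 for RUNX3, 5.24 for WNT5A, 25.9 for BMP8A, 15.7 for SEMA4D and 4.67 for S100A16.

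Other stimulated libraries stood out less often, with replicate 1 the highest at 0.114 CPM for CCND2 and 51.9 for RRP12. Replicate 2 was the lowest at 74.5 CPM for TKT and 378 for CORO1A. Replicate 3 was the highest at 17253 CPM for CAP1, 6.87 for CASP5 and 0.602 for NFE2. In M0, replicate 1 was the highest at 132 CPM for CD14, 61.8 for OLR1, 3207 for MMP14, 10.6 for TRPM2, 2.49 for MT2A, 10.9 for HSPG2 and 0.896 for IFIT1. It was the lowest M0 library at 59.3 CPM for CTSC and 439.7 for CTSS. M0 replicate 2 was the highest at 71.0 CPM for ABCG1 and the lowest at 0.300 CPM for RSAD2. M0 replicate 3 was the highest at 41.3 CPM for DDIT4, 3.9 for HCP5 and 0.209 for IDO1 and the lowest at 0.796 CPM for CMKLR1 and 194 for CTSH. M0 replicate 4 was the highest at 0.145 CPM for FAS and the lowest at 3.24 CPM for LTBP1.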

How the results depend on the processing

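With all libraries 8779 genes were called, 2678 of them at least 2-fold, and 686 list members were called. Requiring more than 1.5-fold in the test itself gave 2836 genes and 335 list members, by construction fewer, and under every other setting tried these counts stayed within 1.5 times. Leaving out 1 library at a time gave 8144 to 9222 genes, 2671 to 2747 at least 2-fold and 658 to 756 list members. The fit of only the 2 groups without stimulated replicate 4, chosen after seeing the data, gave 9918, 2460 and 812. Deviations of same-numbered libraries from their group means correlated at 0.12, -0.09, 0.10 and 0.00, and those of differently numbered libraries at -0.09 to 0.08. The stimulated mean includes replicate 4, which stands apart, so these values do not settle whether replicate numbers pair the samples. The fit with a replicate block called 8637 genes. Directions turned for few genes. Upper-quartile scaling gave -0.03 for LIPA. Scaling by library totals gave -0.10 for CSF1R, -0.02 for CYP27A1, -0.22 for LDHA, -0.26 for LIPA and -0.00 for SPP1. limma-voom gave -0.75 for CYP27A1, -0.48 for FCGR3A, -0.48 for LIPA, -0.25 for SPP1 and -0.29 for TREM2. The replicate block gave -0.28 for CYP27A1, -0.30 for LIPA and -0.02 for SPP1. Leaving out single libraries gave ranges of -0.16 to 0.27 for CSF1R, -0.36 to 0.05 for CTSB, -1.58 to 0.58 for CYP27A1, -1.24 to 0.63 for FCGR3A, -1.10 to 0.26 for LIPA, -0.89 to 0.52 for SPP1, -0.61 to 0.00 for TLR4 and -1.14 to 1.06 for TREM2. The fit of 2 groups without replicate 4 gave -0.17 for CSF1R, -1.58 for CYP27A1, -1.24 for FCGR3A, -1.11 for LIPA, -0.89 for SPP1 and -1.15 for TREM2. The cause was not tested. Of 295 named genes, 11 calls were lost by scaling to totals, 8 under limma-voom, 44 under the 1.5-fold minimum, 4 under the block and 3 without stimulated replicate 4. Totals of 20338546 to 24368753 counts per library limit genes with few counts in M0, whose fitted changes move most when an M0 library is left out.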
